A study of Homo sapiens with 10 samples.

Results

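Promoter Capture Hi-C (PCHi-C) interactions that joined a promoter to a fragment more than 2 Mb away on the same chromosome were examined in human ESCs and in NECs derived from them. An interaction is a pair of a baited, promoter-containing HindIII fragment and another fragment, the promoter-interacting region (PIR). The submitters listed pairs that scored at least 12 in the CHiCAGO pipeline, where the score is a minus log-transformed, distance-weighted p-value. The members were chosen by these values, that is, by presence in the list of either cell type with its replicates merged and by a distance between fragment midpoints over 2 Mb, so their merged scores and distances are given as a description and were not tested. There were 387 such interactions among 98964 cis interactions in ESCs (0.391%, Wilson 95% interval 0.354 to 0.432) and 367 among 98915 in NECs (0.371%, 0.335 to 0.411). Together they made 642 distinct bait and PIR pairs of 154115, or 617 when the order of the ends was ignored. Such intervals cover counting error only.

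The ESCs were the H9 line, grown in Pluripro medium, and the NECs were neuroectodermal cells harvested after 7 days of differentiation of H9, so both groups share 1 genetic background and neither carries a labelled allele or treatment other than the differentiation. PCHi-C was done in 2 biological replicates of each cell type, each with its own list of scores, and mRNA-seq in 2 libraries of each. Both ESC RNA libraries came from 1 sequencing lane and both NEC libraries from another, so lane and cell type cannot be told apart. The conventional Hi-C samples were not analysed here.

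Enhancers and other regulatory DNA act on promoters through contacts that form when chromatin loops, and most such contacts stay within the same topological domain. Very long-range contacts are known between regions of like chromatin, and in pluripotent cells the CpG-rich promoters of silent developmental genes are known to gather where Polycomb proteins bind. A genome assembly sets the distance that is assigned to a contact, and in regions of gaps and near-identical duplications that distance may not be that in the cell.

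The sequences of 2 pairs of ends are shown because a developmental gene stands at one or both ends over more than 2 Mb. For each fragment, the 200 bases with the most CpG dinucleotides outside annotated UTRs are printed from GRCh37, 5′ to 3′, with each CpG in capitals. The EMX1 window lies in the coding sequence of its exon, the VAX2 window in an intron of VAX2, the EN2 window upstream of the gene with no gene annotated in it, and the window of the PIR of EN2 in an intron of PTPRN2. They held 29, 30, 41 and 33 CpG dinucleotides.

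EMX1 fragment, chr2:73145101-73145300, + strand: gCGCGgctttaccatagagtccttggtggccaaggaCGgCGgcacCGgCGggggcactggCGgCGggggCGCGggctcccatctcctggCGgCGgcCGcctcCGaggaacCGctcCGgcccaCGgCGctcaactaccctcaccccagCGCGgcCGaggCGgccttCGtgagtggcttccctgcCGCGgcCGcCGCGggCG

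VAX2 fragment, chr2:71128349-71128548, + strand: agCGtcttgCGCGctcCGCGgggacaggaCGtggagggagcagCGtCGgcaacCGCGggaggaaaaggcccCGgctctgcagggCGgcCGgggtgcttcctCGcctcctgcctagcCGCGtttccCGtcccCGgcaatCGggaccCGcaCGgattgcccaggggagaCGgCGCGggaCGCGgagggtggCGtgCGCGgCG

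EN2 bait, chr7:155250430-155250629, + strand: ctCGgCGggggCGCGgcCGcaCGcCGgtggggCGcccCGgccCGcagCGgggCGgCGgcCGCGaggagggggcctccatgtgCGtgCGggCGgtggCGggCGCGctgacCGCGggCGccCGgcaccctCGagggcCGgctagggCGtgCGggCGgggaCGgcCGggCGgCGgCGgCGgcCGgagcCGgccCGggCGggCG

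PIR of the EN2 bait, chr7:157477842-157478041, + strand: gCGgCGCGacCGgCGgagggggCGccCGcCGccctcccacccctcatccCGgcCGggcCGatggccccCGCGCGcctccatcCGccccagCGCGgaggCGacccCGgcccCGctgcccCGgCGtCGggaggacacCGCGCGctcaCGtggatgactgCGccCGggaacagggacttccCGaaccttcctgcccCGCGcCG

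The number of interactions over 2 Mb depended on the list. The 2 ESC replicates alone listed 2326 and 2157 of them (2.46% and 2.52% of their cis interactions), and the 2 NEC replicates 2663 and 1259 (2.68% and 1.56%). NEC replicate 2 thus stood apart with the lowest share, and every replicate list held more than either merged list. The replicates of ESCs had 186 pairs over 2 Mb in common (7.997% of replicate 1 and 8.62% of replicate 2), and those of NECs 88 (3.30% and 6.99%). Lists of different cell types overlapped to a like extent, from 73 pairs (ESC replicate 1 or 2 with NEC replicate 2) to 216 (ESC replicate 1 with NEC replicate 1). With 2 replicates against 2, the smallest p a two-sided exact permutation test allows is 0.333, so no difference between cell types in these lists was tested that way.

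**Figure D1:**
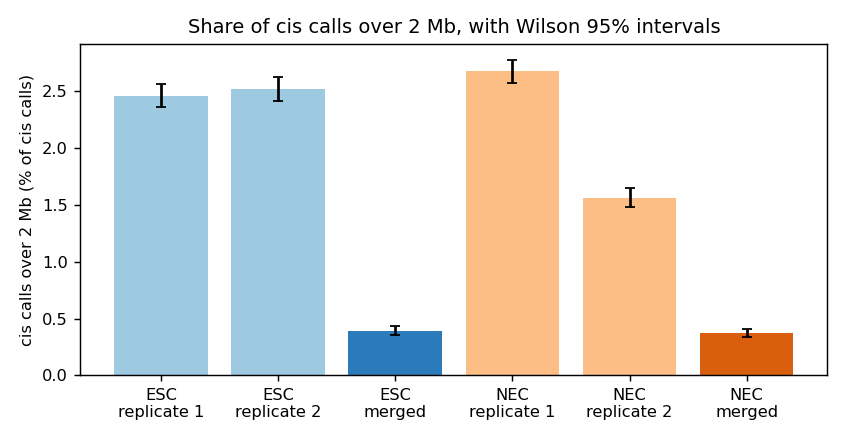
Share of cis interactions over 2 Mb (percent of all cis interactions, y axis) in each replicate list and in the merged list of ESCs (blue) and NECs (orange), with bars of Wilson 95% intervals. The merged lists sit at 0.391% and 0.371%, and the replicate lists between 1.56% and 2.68%.

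Of the merged ESC interactions, 90.2% were also listed by replicate 1 of that cell type and 54.5% by replicate 2. For NECs, 91.8% were listed by replicate 1 and 30.5% by replicate 2. Both replicates listed 175 of the 387 ESC interactions (45.2%, 40.3 to 50.2) and 85 of the 367 NEC interactions (23.2%, 19.1 to 27.7). Among interactions of 1 to 2 Mb the same shares were 31.7% and 29.2%, and up to 1 Mb they were 22.4% and 20.6%. Only 2 ESC and 3 NEC interactions over 2 Mb were listed in neither replicate (0.517% and 0.817%), against 29.5% and 27.6% of those up to 1 Mb. The replicates went into the merged lists, so these shares describe the interactions and are no independent check of them. ESCs and NECs shared 112 pairs over 2 Mb, 28.9% of the ESC and 30.5% of the NEC interactions, and 34 pairs were listed in all 4 replicates.

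The pairs gathered in few places. They used 266 of 21833 baits, of which 196 had a single pair and 19 had at least 5, and 485 PIRs, of which 378 had a single bait. Pairs were grouped into blocks when both their ends lay within 500 kb of each other. Of the blocks 100 held a single pair, and the 3 largest blocks held 273 pairs (42.5%). Pairs of 1 bait or 1 block share fragments and are not independent of each other.

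Distances ran from just over 2 Mb to 218 Mb, with a median of 3.89 Mb in ESCs and 2.51 Mb in NECs. At the lower limit, the closest pairs inside it joined TREML4 to KCNK5 over 2000495 bases (NEC score 12.6) and EMX1 to an intron of VAX2 over 2001990 bases (ESC score 12.2). The closest outside it joined ERO1L to SAMD4A over 1999160 bases (NEC score 12.2) and over 1995834 bases (12.2). The median merged score was 15.2 in ESCs and 13.9 in NECs, against 13.5 and 13.6 over all cis interactions.

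Many of the ends were separated by regions that the assembly does not resolve. After the data were seen, a pair was classed as crossing an assembly gap or duplication when a run of undetermined bases of at least 50 kb lay between its ends in GRCh37, when a copy of 1 end (95% identity over at least 50% of its length) lay within 1 Mb of the other end, or when the 100 kb around each end shared at least 10 kb of near-identical sequence. This applied to 379 of the 642 pairs (59.0%) and to 4.96% of the pairs of 1 to 2 Mb. By distance, it applied to 30.4% of pairs of 2 to 2.5 Mb, 37.0% of 2.5 to 3 Mb, 90.9% of 3 to 5 Mb and each of the 155 pairs over 10 Mb. Of those 155, 115 were in 1 block on chromosome 1. A wider span has more room for a gap, so these shares rise with distance by definition. The share among other fragment pairs at the same distances was not determined. A gap alone lay between the ends of 55.9% of the pairs over 2 Mb and 4.39% of those of 1 to 2 Mb. The 2 ends themselves seldom resembled each other, with at least 500 aligned bases in 3 pairs (0.467%, 0.159 to 1.36) against 0.0967% of the pairs of 1 to 2 Mb. Near-identical sequence of less than 10 kb around the ends was not counted as a duplication, and duplications elsewhere between the ends were not looked for. Whether gaps or duplications had a part in these interactions was not tested.

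**Figure D2:**
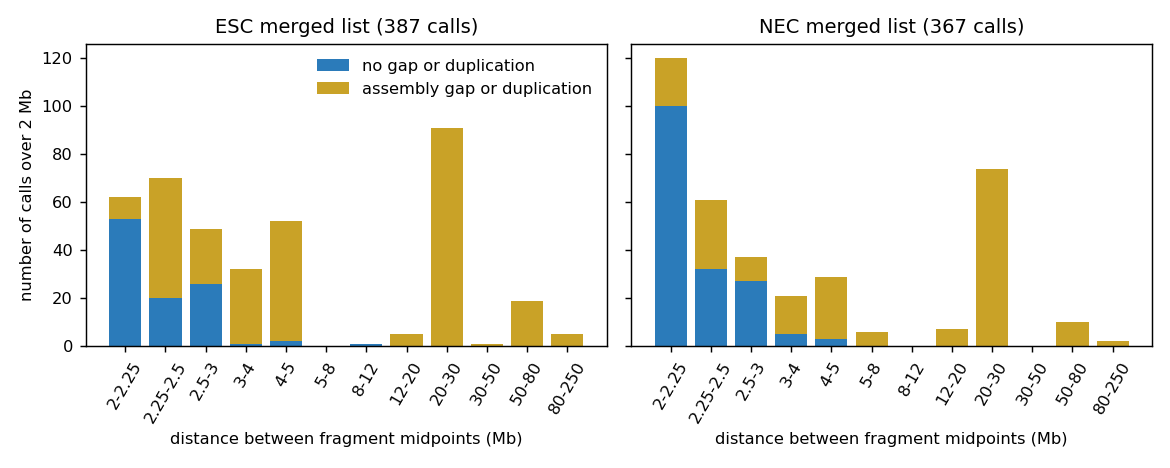
Number of interactions over 2 Mb (y axis) by distance between fragment midpoints (Mb, x axis, in bins of unequal width) in the merged ESC list (left) and NEC list (right), split by whether the pair was classed as crossing an assembly gap or duplication. Most interactions without one lie under 3 Mb, and the peak at 20 to 30 Mb (91 in ESCs, 74 in NECs) consists of pairs with one.

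The 2 classes differed in how often they recurred. Pairs with a gap or duplication numbered 284 in the ESC and 200 in the NEC list. Both lists held 105, which is 37.0% of the ESC and 52.5% of the NEC interactions of this class. Pairs without one numbered 103 and 167, of which 7 were in both (6.80% and 4.19%). Both replicates listed 52.1% of the ESC and 28.5% of the NEC interactions with a gap or duplication, and 26.2% and 16.8% of those without. Of the 34 pairs listed in all 4 replicates, 32 crossed a gap or duplication. The median merged score was 16.2 in ESCs and 16.02 in NECs with a gap or duplication and 13.0 and 13.1 without.

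The largest block joined the 2 sides of the chromosome 1 centromere. Its 115 pairs linked baits at ADAM30, REG4, PHGDH and ZNF697 to PDE4DIP and SEC22B over a median of 24.6 Mb, with 90 pairs in the merged ESC and 73 in the merged NEC list. ESC replicates 1 and 2 listed 91 and 71 of them, and NEC replicates 1 and 2 listed 87 and 32. Of the 34 pairs in all 4 replicate lists, 21 were in this block. ADAM30, which encodes a membrane protein of the disintegrin and metalloproteinase family, had 50 interactions over 2 Mb in ESCs and 47 in NECs. From ADAM30 to the start of SEC22B, a SNARE protein of transport between the endoplasmic reticulum and the Golgi, the merged score was 64.4 in ESCs and 37.4 in NECs, and the replicate scores were 108, 34.01, 31.5 and 30.2 (ESC replicates 1 and 2, then NEC replicates 1 and 2). All 4 replicates passed, with ESC replicate 1 far above the other three. In the order of genes matched to RefSeq, ADAM30 and SEC22B had 8 genes between them in GRCh37 and 1 in GRCh38.p14, whereas ADAM30 and PDE4DIP, the gene of a centrosome and Golgi scaffold protein, had 7 and 40.

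The next 2 blocks shared a region of chromosome 10 that holds PPYR1, a receptor of the neuropeptide Y family. There, 79 pairs linked it to MSMB, AGAP7 and NCOA4 over a median of 4.34 Mb, and another 79 linked it to FRMPD2 and MAPK8 over a median of 2.40 Mb. More of these were listed in ESCs, 69 against 26 in NECs for the first and 71 against 30 for the second. The replicates listed 63 and 39 (ESCs) against 37 and 6 (NECs) of the first, and 65 and 38 against 46 and 7 of the second, so that in the second NEC replicate 1 was above ESC replicate 2 and the cell types overlapped. The PPYR1 bait had the most pairs of any bait, with 64 in all, 60 in ESCs and 22 in NECs. MSMB, a secreted protein of the prostate, and PPYR1 had 28 genes between them in GRCh37 and 2 in the GRCh38.p14 order. Between PPYR1 and MAPK8, the gene of the JNK1 kinase, the number was 11 in both.

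Over all members, 549 pairs had both ends matched to a gene in the 2 orders. The number of genes between the ends was the same for 323 pairs, fell below 50% for 60 and rose to at least 1.5 times for 98.

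**Figure D3:**
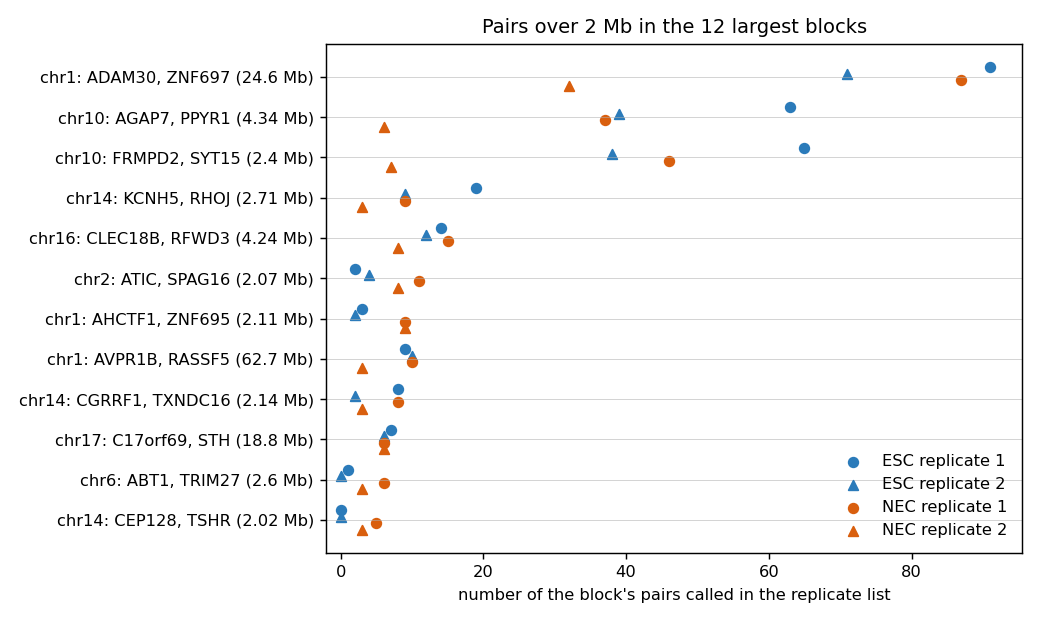
Number of pairs listed in each replicate (x axis) for the 12 largest blocks, named by chromosome and bait genes with the median distance between ends. Blue marks ESC and orange NEC replicates, circles replicate 1 and triangles replicate 2. The chromosome 1 block at ADAM30 has from 32 to 91 pairs in each replicate list, while the TSHR block on chromosome 14 has none in either ESC replicate.

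Among the pairs with high scores outside the 3 largest blocks was that of KIAA1267, a subunit of a histone acetyltransferase complex, with a fragment 1.3 kb from LRRC37A3 over 18.6 Mb of chromosome 17. It scored 55.5 in the ESC and 29.9 in the NEC list. The replicates scored 64.8 and 31.1 in ESCs against 59.3 and 32.6 in NECs, where the cell types overlapped. The chromosome 17 block held 8 pairs, of which 4 were shared and 3 listed in all 4 replicates.

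On chromosome 16, 20 pairs joined PDPR exons and CLEC18C to NPIPL2, CLEC18B, PSMD7 and GLG1 over a median of 4.24 Mb, 13 of them in ESCs and 15 in NECs. The PIR with PDPR exon sequence at chr16:70185694-70193004 was reached by 5 baits. The longest distances, up to 218 Mb, joined promoters near the start of chromosome 1 to neighbouring fragments near its end. The baits were those of NECAP2, SPATA21, PADI2 and RP1-37C10.3 in ESCs and ARHGEF19 in NECs. NECAP2, an endocytosis protein, reached chr1:234916041-234921527 with a merged ESC score of 31.1 (20.1 and 30.8 in the ESC replicates and 12.3 in NEC replicate 1). The pair was thus listed in 1 NEC replicate while absent from the merged NEC list. CHL1, a neural cell adhesion gene, had an interaction over 75.03 Mb of chromosome 3 that was listed in ESCs only, at 35.7 (31.5 and 24.8 in the replicates). Its block held 3 pairs, all in the merged ESC list, and NEC replicate 1 listed 1 of them. Of these pairs, those on chromosomes 1 and 3 crossed a gap or duplication, as did all but 4 of the 20 on chromosome 16.

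The 263 pairs classed as without a gap or duplication were shorter, with a median distance of 2.20 Mb and a longest of 8.14 Mb. They fell into 126 blocks. A bait lay at both ends in 35.7% of them, against 14.2% of the pairs with a gap or duplication and 33.1% of those of 1 to 2 Mb. Among them the densest 200 bases of a PIR held a median of 12 CpG dinucleotides for ESC-only pairs (quartiles 7 and 24). The median was 8 for NEC-only pairs (quartiles 5 and 21), 7 for pairs with a gap or duplication and 8 for pairs of 1 to 2 Mb. Within 1 to 2 Mb it was 9 for ESC-only and 8 for NEC-only pairs. PIRs of ESC-only pairs over 2 Mb were also longer, with a median of 6046 bases against 4750.5 for NEC-only pairs. A longer fragment offers more windows. The PIR was also a bait in 39.6% of the ESC-only and 33.1% of the NEC-only pairs of this class. Within 1 to 2 Mb these shares were 32.1% and 28.6%. Both ends held at least 20 CpG dinucleotides in 200 bases in 23.96% of the ESC-only and 19.4% of the NEC-only pairs, 9.76% of the pairs with a gap or duplication and 16.4% of those of 1 to 2 Mb. Within 1 to 2 Mb the share was 14.5% of the ESC-only and 13.1% of the NEC-only pairs. These windows are a description and were not tested.

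Developmental transcription factor genes stood at an end of 8 of the 103 ESC interactions without a gap or duplication (7.77%), and of 2 of the 167 in NECs (1.20%). The list is not complete: SOX4 and ZEB2, which are not on it, were each at an end of a NEC interaction of this class, and ZEB2 also of an ESC one, so the counts depend on its members. In 4 of the 8 in ESCs, and in none in NECs, such a gene started at both ends in the annotation of the counts. The block of EMX1 and VAX2 made 3 of the 8, and the pair of these 2 genes was counted from both sides, as 2 of the 4. EN2 made another 2 of the 8, so the 8 are not independent of each other. Among interactions of 1 to 2 Mb such a gene stood at an end of 5.38% of the 2902 ESC and 3.85% of the 5267 NEC interactions, and at both ends of 13 and 4.

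EN2, a homeodomain factor of the midbrain and hindbrain, had the highest score of the ESC interactions in this class. The bait reached a PTPRN2 fragment 2.22 Mb away with a merged score of 23.6. The ESC replicates scored 25.9 and 16.8, and neither NEC replicate nor the merged NEC list held the pair. The next fragment of PTPRN2, the gene of a protein of secretory vesicles, scored 15.8 in the merged ESC list and 17.4 in ESC replicate 1 alone.

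VAX2, a homeodomain factor of the ventral eye, and EMX1, of the dorsal forebrain, were joined over 2.01 Mb of chromosome 2. The pair was listed from both sides, with merged ESC scores of 14.7 from VAX2 and 14.3 from EMX1. It rested on ESC replicate 1, which scored 16.6 and 15.6, since ESC replicate 2 and both NEC replicates did not list it. EMX1 also reached the adjacent VAX2 intron at 12.2 (13.2 in ESC replicate 1).

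POU4F3 and HAND1 were the farthest apart of the class, at 8.14 Mb on chromosome 5. POU4F3 encodes a POU factor of sensory hair cells and HAND1 a basic helix-loop-helix factor of heart and trophoblast. The merged ESC score was 13.2, with 16.7 and 13.8 in the replicates, and no NEC list held the pair. LMX1B, a LIM homeodomain factor of the midbrain and the limb, reached a fragment at chr9:126768067-126775500, inside the gene of another LIM homeodomain factor, LHX2, 2.61 Mb away, at 12.8 (13.99 and 12.7). FOXD2, a forkhead factor, reached DMRTA2, a factor of cortical development, over 2.99 Mb at 14.1. That pair rested on ESC replicate 2, at 15.98, and was not listed in ESC replicate 1. In the annotation of the counts, POU4F3 with HAND1 was the only pair joining starts of such genes in both ESC replicates. LMX1B with the fragment inside LHX2 was also listed in both, but that annotation places the LHX2 start outside the fragment. The fragment is itself a bait, and whether other LHX2 transcripts start in it was not examined.

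Signalling and other regulatory genes appeared at single ESC pairs. ZNF25 reached FZD8, a receptor of Wnt ligands, over 2.33 Mb at 14.3 (13.9 and 17.5 in the ESC replicates). ZEB2, a zinc finger homeodomain factor of the neural crest, reached chr2:147407407-147424854 over 2.13 Mb at 15.6 (16.3 and 12.6). Neither pair was in any NEC list. The ZEB2 promoter was itself the PIR of a bait 511.0 kb from ACVR2A in NECs, over 2.80 Mb at 13.9 (14.9 in NEC replicate 1).

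**Figure D4:**
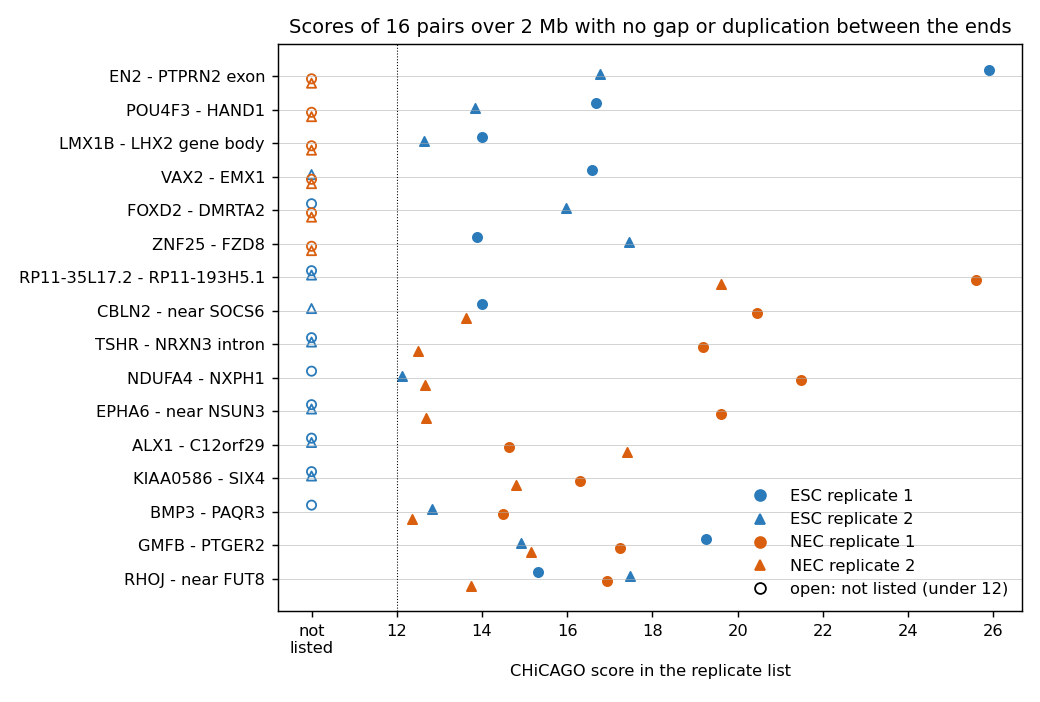
CHiCAGO scores (x axis) of 16 pairs over 2 Mb with no gap or duplication in each replicate list, in blue for ESCs and orange for NECs, with circles for replicate 1 and triangles for replicate 2. Open symbols at the left mark lists that do not hold the pair, that is, a score under 12 (dotted line), and their place on the axis is no value. The upper 6 pairs are listed in ESC replicates only, and the GMFB and RHOJ pairs at the bottom in all 4.

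In NECs, the highest score of this class, 27.6, joined a promoter of RP11-35L17.2 to that of RP11-193H5.1 over 2.04 Mb of chromosome 1. It scored 25.6 and 19.6 in the NEC replicates and was not in an ESC list. CBLN2, a cerebellin that organises synapses, reached 5 neighbouring fragments 2.04 to 2.06 Mb away, between 153.8 and 168.4 kb from SOCS6. The best of them scored 20.4 in the merged NEC list, with 20.5 and 13.6 in the NEC replicates and 14.01 in ESC replicate 1. The other 4 were listed in NEC replicate 1 alone, with merged scores from 12.4 to 17.9.

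TSHR, the thyrotropin receptor gene, reached an intron of NRXN3, a presynaptic neurexin, over 2.03 Mb at 20.1 (19.2 and 12.5). All 6 pairs of this block, which has another bait at CEP128, were in the NEC list and none in ESCs. NXPH1 encodes a neurexophilin, a secreted ligand of neurexins. From NDUFA4, a mitochondrial respiratory chain gene, the NXPH1 promoter was reached over 2.503 Mb at 18.7 in NECs (21.5 and 12.7), with 12.1 in ESC replicate 2. From the NXPH1 bait the same pair scored 14.98, in NEC replicate 1 alone (16.1), and 4 further fragments scored from 12.4 to 13.0, each in a single NEC replicate. A block between TMPRSS15 and the surroundings of the neural cell adhesion gene NCAM2 held 6 pairs, all in NECs. Their merged scores ran from 12.03 to 16.7, and each was listed in a single NEC replicate. Only 1 of them was listed from the NCAM2 bait.

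Guidance and signalling genes were at an end of 7 NEC interactions of this class, 4.19% of them, against 0.971% in ESCs and 1.82% of the NEC interactions of 1 to 2 Mb. EPHA6, an ephrin receptor, had 4, of which the strongest, 2.45 Mb away, scored 16.8 (19.6 and 12.7) and the other three were listed in NEC replicate 1 alone. BMP3, a ligand of the BMP family, reached PAQR3 over 2.09 Mb at 14.6 in NECs (14.5 and 12.4), and ESC replicate 2 listed the pair at 12.8. SEMA6A, a transmembrane semaphorin, had 2 at 12.2, in NEC replicate 1 alone. The listed developmental factors among the NEC interactions were the homeodomain genes ALX1, which reached C12orf29 over 2.75 Mb at 15.9 (14.6 and 17.4), and SIX4, reached from KIAA0586 over 2.29 Mb at 14.5 (16.3 and 14.8).

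ATIC, an enzyme of purine synthesis, had 10 interactions over 2 Mb in NECs and 1 in ESCs, the most of any NEC bait without a gap or duplication. They lay around the SPAG16 and IKZF2 promoters. The 16 pairs of the block, which also holds a bait of the fibronectin gene FN1, counted 14 in NECs and 3 in ESCs. The replicates listed 11 and 8 of them in NECs and 2 and 4 in ESCs. Most of these pairs were members through the merged NEC list, which was made from the same NEC replicates. The replicate counts are therefore no independent check of a difference between the cell types. The pair listed in both cell types scored 13.4 in ESCs (15.6 in replicate 1) and 19.1 in NECs (20.2 and 15.3).

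The histone gene cluster on chromosome 6 was joined to TRIM27 and its surroundings, with 8 pairs in the block, 7 in NECs and 1 in ESCs. The pair of HIST1H3G and HIST1H2BI with a fragment 6.7 kb from TRIM27 scored 15.4 in NECs (17.4 and 12.8). TRIM27 in turn reached the same histone fragment at 13.9, in NEC replicate 2 alone (25.3). HIST1H4C was the histone gene with an ESC interaction, at 12.1 (16.02 in ESC replicate 1).

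Conversely, 24 pairs on chromosome 14 between RHOJ or KCNH5 and the surroundings of FUT8 were more numerous in ESCs, 18 against 7. ESC replicates 1 and 2 listed 19 and 9, and NEC replicates 9 and 3, so that the lower ESC replicate equalled the higher NEC replicate. RHOJ had 11 interactions in ESCs and 4 in NECs. The strongest, with an intron of FUT8, an enzyme that adds core fucose to glycoproteins, scored 19.6 in ESCs (19.6 and 17.5) and was in no NEC list.

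Of the pairs without a gap or duplication, 7 were shared by the merged lists. The 2 listed in all 4 replicates were GMFB with PTGER2, a prostaglandin E2 receptor, over 2.18 Mb (16.2 in ESCs and 16.6 in NECs), and RHOJ with a fragment downstream of FUT8 over 2.59 Mb (14.8 and 14.7). The replicates of GMFB with PTGER2 scored 19.3 and 14.9 in ESCs. In NECs they scored 17.24 and 15.1, within the ESC range. The others joined CNIH to PTGER2, PSMD7 to PDPR, PKDCC to MAP4K3, ATIC to the surroundings of SPAG16, and RMND5B to THOC3.

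Several gene families with interactions at shorter range had none over 2 Mb from their own baits. No HOX gene of the 39 that start in a bait had one, although 10 in ESCs and 13 in NECs had an interaction of 1 to 2 Mb. None of the 45 clustered protocadherin genes, the 29 genes of Polycomb subunits, the 14 genes of CTCF and cohesin, the 131 keratin genes or the 76 ribosomal protein genes in baits had one either. The ribosomal protein gene RPL22 started in the PIR of another bait, RP1-286D6.2, in NECs at 13.3 (15.9 in NEC replicate 1). Over all 22218 genes that start in a bait, 136 (0.612%) had an interaction over 2 Mb in ESCs and 193 (0.869%) in NECs, so a count of 0 in families of this size is near the background share. Of 230 developmental transcription factor genes in baits, 6 (2.61%) had one in ESCs and 1 (0.435%) in NECs. Of 64 histone genes the numbers were 1 (1.56%) and 5 (7.81%), and several of these start in the same fragment. Of 230 neuronal adhesion and synaptic genes they were 3 and 4, among them KCNH5, GRIA4 and LRRN3. Zinc finger genes had 5 and 3 of 418, and olfactory receptor genes 2 and 3 of 315.

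The RNA libraries held between 19234087 and 25356382 counts, and 17564 genes were tested. The labels fitted the marker lists: 9 of 10 pluripotency markers were lower in NECs (summed level 6460 and 6900 CPM in the ESC and 1110 and 1690 CPM in the NEC libraries) and 10 of 10 neuroectoderm markers were higher (9.20 and 7.53 against 693 and 547 CPM). Of 10 neural crest markers 7 were higher and 1 lower (150 and 136 against 312 and 162 CPM), and of 10 mesendoderm markers 7 were lower (38.9 and 105 against 8.18 and 6.13 CPM). No marker was at 0 in all libraries. Whether other cell types among the NECs had a part in the results was not tested, and in bulk RNA fewer cells of a type and less RNA per cell cannot be told apart.

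Genes that start in a bait with an interaction over 2 Mb were called at a rate near that of all genes. Of 285 such genes 201 passed the filter on low counts, which tests those that are high in either cell type, and 34 were higher and 13 lower in NECs by edgeR's quasi-likelihood test using Benjamini-Hochberg adjustment, at an adjusted p under 0.05 with a log2 fold change over 1.5 in size. That is 23.4% of those tested, against 21% of all genes tested (3697 of 17564). Higher in NECs were 16.9% against 11.4% of all genes, and lower 6.47% against 9.68%. For ESC-only pairs without a gap or duplication, 14 of 61 tested genes were higher and 3 lower. For NEC-only pairs of this class, 12 of 99 were higher and 11 lower. Among baits of ESC-only interactions of 1 to 2 Mb, 120 of 837 were higher and 82 lower. The median log2 fold change of the 201 genes was -0.05, and that of all genes tested 0.01.

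The transcription factor genes at the ends of ESC interactions were mostly low or silent in ESCs. Of the 8 genes, DMRTA2, EMX1, EN2, FOXD2, HAND1, LMX1B, POU4F3 and VAX2, 6 were tested and 5 were called higher in NECs, against 11.4% of all genes tested. EN2, VAX2, DMRTA2 and FOXD2 passed the filter on low counts through the NEC libraries, where they are high, so the count of 5 supports nothing about the group. EN2 had no count in either ESC library and 5.80 and 1.01 CPM in the NEC libraries (149 counts in sum), at least 24.5-fold higher against a floor of 3 counts per library (adjusted p = 0.008618 by edgeR's quasi-likelihood test with Benjamini-Hochberg adjustment). Without NEC replicate 1 it was at least 7.64-fold higher, and without NEC replicate 2 at least 44.3-fold. VAX2 had none in ESCs and 38 in each NEC library, at least 12.5-fold higher against the same floor (edgeR, Benjamini-Hochberg adjusted p = 0.0006328). In DMRTA2 there were 0 and 1 counts in ESCs and 51 and 53 in NECs, a ratio of 103 with a counting interval from 18 to 4.1e+03. None of the 3 genes overlapped between the cell types.

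LMX1B had 18 and 17 counts in ESCs and 287 and 93 in NECs, a log2 fold change of 3.39 (SE 0.66, edgeR, Benjamini-Hochberg adjusted p = 0.004896), which was 2.22 without NEC replicate 1 and 4.04 without NEC replicate 2. LHX2, in whose body the other end lay, had 26 and 17 counts in ESCs and 163 and 308 in NECs, a log2 fold change of 3.32 (SE 0.40, edgeR, Benjamini-Hochberg adjusted p = 0.000767). Both genes were thus higher in NECs than in ESCs without overlap. FOXD2 stayed near the floor, with 4 and 1 counts in ESCs and 14 and 17 in NECs (a log2 fold change of 2.48, SE 0.64, edgeR, Benjamini-Hochberg adjusted p = 0.01456). Its call was lost with DESeq2's Wald test (adjusted p = 0.1038) and without ESC replicate 2 (edgeR, adjusted p = 0.1465). EMX1 had 7 and 23 counts in ESCs and 14 and 2 in NECs, where the cell types overlapped, and was not called (log2 fold change -0.91, SE 0.83, edgeR, Benjamini-Hochberg adjusted p = 0.3716). Without NEC replicate 1 it was called lower in NECs (edgeR, adjusted p = 0.04185). POU4F3 had at most 2 counts and HAND1 at most 6 in any library, and neither was tested.

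**Figure D5:**
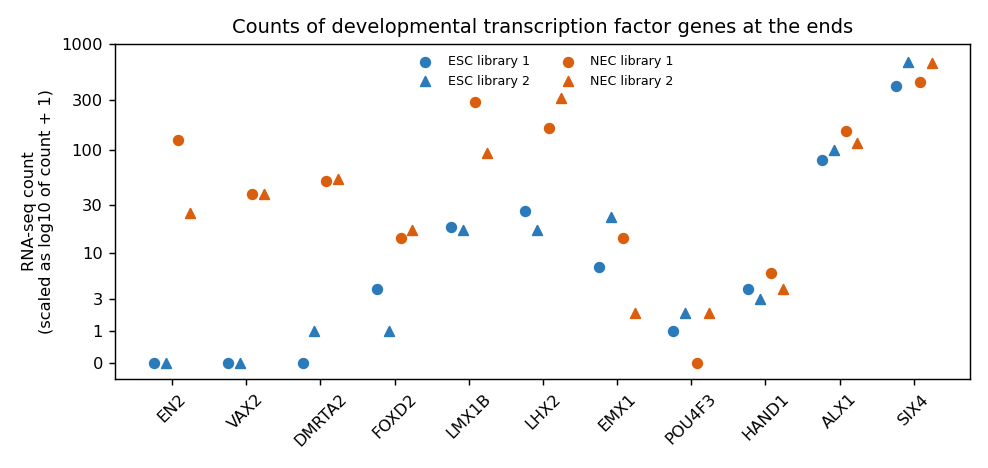
RNA-seq counts (y axis, spaced as the log10 of count + 1) of 11 developmental transcription factor genes at or around the ends of pairs over 2 Mb without a gap or duplication, in ESC (blue) and NEC (orange) libraries. EN2, VAX2, DMRTA2, FOXD2, LMX1B and LHX2 are higher in both NEC libraries than in either ESC library, as is ALX1 by a smaller margin, while EMX1, POU4F3, HAND1 and SIX4 overlap.

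The factors at NEC interactions were not called. ALX1 had 81 and 101 counts in ESCs and 151 and 116 in NECs, which did not overlap (a log2 fold change of 0.49, SE 0.26, edgeR, Benjamini-Hochberg adjusted p = 0.1483), and SIX4 had 401 and 671 in ESCs and 438 and 659 in NECs. Of the signalling genes, BMP3 rose from 2 and 5 counts to 11 and 59 (log2 fold change 3.17, SE 0.88, edgeR, Benjamini-Hochberg adjusted p = 0.01991), a call that was lost without NEC replicate 2 (edgeR, adjusted p = 0.09262). EPHA6 fell from 23 and 17 counts to 6 and 6, by 1.82 on the log2 scale (SE 0.48, edgeR, Benjamini-Hochberg adjusted p = 0.0156), and this call was lost with DESeq2 and without ESC replicate 1 or NEC replicate 2. BMP3 passed the filter on low counts through the NEC libraries and EPHA6 through the ESC libraries, where each is high. FZD8, at an ESC pair, had 357 and 395 counts in ESCs and 188 and 299 in NECs and was not called, its log2 fold change of -0.73 lying inside the threshold. NCAM2 rose from 12 and 13 counts to 48 and 62 (log2 fold change 2.04, SE 0.32, edgeR, Benjamini-Hochberg adjusted p = 0.002034). Other genes with NEC interactions were nearly silent in both cell types, with 14 counts of CBLN2 and 10 of NXPH1 summed over the NEC libraries, 1 of TSHR and none of RP11-35L17.2.

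Among all member genes of moderate or high expression, the largest increases in NECs were those of FABP7, a fatty acid binding protein of radial glia, and TXNIP, a thioredoxin-binding protein. FABP7 went from 2.12 and 2.06 CPM to 50.9 and 79.6 CPM (log2 fold change 4.96, SE 0.27, edgeR, Benjamini-Hochberg adjusted p = 4.425e-05). Its bait reached a fragment 26.9 kb from RNF217 over 2.16 Mb in NECs at 13.5 (15.1 in replicate 1 alone). TXNIP, whose NEC interaction over 59.5 Mb crossed assembly gaps, had a log2 fold change of 4.72 (5.33 without ESC replicate 1 and 4.04 without NEC replicate 1). NID2, a basement membrane protein with an ESC interaction at 12.4, had one of 4.66, LRRN3 one of 3.48 (4.07 without ESC replicate 1) and PCDH19, a neuronal protocadherin of the X chromosome, one of 2.97.

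The largest decreases were those of BCL11A, a zinc finger factor, at -4.48, of POLR3G, an RNA polymerase III subunit of pluripotent cells, at -3.83, and of PLOD2, a collagen lysyl hydroxylase, at -3.55. The value of PLOD2 was -2.39 without ESC replicate 1 and -4.20 without ESC replicate 2. Without NEC replicate 2, BCL11A was at -5.23 and POLR3G at -4.62. BCL11A reached the FANCL promoter over 2.31 Mb in NECs at 15.4 (17.5 in replicate 1), the cell type where it had 0.702 and 1.62 CPM against 27.8 and 25.4 in ESCs. POLR3G had an ESC interaction over 2.67 Mb at 14.5 (12.6 and 17.9) and fell from 219 and 230 CPM to 9.13 and 22.1. DPPA4, a pluripotency gene, fell by 1.96 and SEMA6A fell by 1.84 on the log2 scale, and both had their interactions over 2 Mb in NECs. Interactions over 2 Mb were thus found at genes that rose and at genes that fell, in either cell type.

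Genes of the largest blocks and of some smaller ones varied in the same way. ADAM30 and REG4 had no count in any library, and MSMB had 2 counts in ESCs and none in NECs summed over the libraries of each. AGAP7, which has near-identical copies between which reads may be split, rose from 4 and 8 counts to 138 and 157 (log2 fold change 4.52, SE 0.32, edgeR, Benjamini-Hochberg adjusted p = 0.0001122). RHOJ rose from 4 and 4 counts to 86 and 37 (log2 fold change 3.86, SE 0.66, edgeR, Benjamini-Hochberg adjusted p = 0.00286), in the cell type with fewer of its interactions, and the log2 fold change was 2.995 without NEC replicate 1. Both AGAP7 and RHOJ passed the filter on low counts through the NEC libraries, where they are high. ZEB2 rose by 2.80 and ZNF25 by 2.08 on the log2 scale, and as baits both had their pairs in ESCs only. SEC22B, PDE4DIP, MAPK8, NCOA4, KIAA1267, ATIC, FN1 and TRIM27 were expressed in both cell types and had log2 fold changes between -0.63 and 0.72, none of which passed the threshold on size.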

How the data were processed

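The PCHi-C lists were made by the authors, who mapped reads to GRCh37 with HiCUP, removed duplicates and scored pairs of HindIII fragments with CHiCAGO per replicate and for the replicates combined. The deposited score is given for pairs of at least 12, and read numbers behind a score are not given, so depth per pair is unknown. The deposited RNA-seq counts are whole reads per gene, which the authors aligned with TopHat2 2.0.8b to GRCh37 and counted on Ensembl genes without regard to strand. Overlapping and antisense genes therefore cannot be told apart.

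Here, distances were taken between fragment midpoints. A bait is the first fragment of a line with an odd identifier. Fragments and their surroundings were aligned with minimap2 2.31 to GRCh37, positions of exons and introns came from GENCODE v44 lifted to GRCh37, and gene order was compared with RefSeq on GRCh38.p14, in which 18645 of 31017 genes matched. Genes passing filterByExpr (minimum count 10) were tested with edgeR 4.0.16 (R 4.3.3, TMM, quasi-likelihood test, Benjamini-Hochberg adjustment over all 17564 genes), with DESeq2 1.42.0 as an alternative. The test was run on simulated data first. Lists were analysed in Python 3.11.15 with pandas 2.3.3, numpy 2.4.6, scipy 1.17.1 and pysam 0.24.0, and figures drawn with matplotlib 3.10.9.

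The members, the gene lists and the rules for naming were chosen with earlier results of these data known. Named were, among others, pairs with high scores, the longest distances or a score in all 4 replicates, the baits with the most pairs, the member genes with the largest fold changes of at least 3 log2 CPM, and examples of each gene list. Further pairs and genes at their ends were chosen after their values were seen. Alternatives were a score of 15, other measures of distance, single replicates and other fits. Some pairs and genes that these rules name are not reported here.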

Additional observations from a re-analysis of the deposited data

How the results depend on the processing

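At a score of at least 15, 202 ESC and 143 NEC interactions over 2 Mb were left, 71 of them shared. They made up 0.7458% of the ESC cis interactions at that score, with a bait at both ends in 10.4% (ESCs) and 17.48% (NECs) and a listing in both replicates in 68.81% and 44.76%. Without pairs that crossed a gap or duplication, an alternative chosen after seeing the data, 103 ESC and 167 NEC interactions were left (0.1041% of the ESC cis interactions), 7 of them shared, with a bait at both ends in 39.81% and 33.53% and a listing in both replicates in 26.21% and 16.77%. With both ends within 10 kb counted as shared, 226 ESC interactions had a counterpart in NECs. Single replicates gave from 2157 to 2326 interactions in ESCs and from 1259 to 2663 in NECs, which were 2.461% to 2.518% and 1.564% to 2.676% of cis interactions, and a bait at both ends in 21.5% to 26.98% and 21.48% to 28.75%. With no fold change threshold, 68 of the 201 member genes tested were higher and 58 lower in NECs. Of all 17564 genes tested, 5529 were higher and 5209 lower at that setting (61.1% in either direction), so the member counts are near the background.

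Replicate numbers did not pair the RNA libraries, since the deviations of same-numbered libraries from their group means correlated at 0.0485. With the replicate number as a block, 33 member genes were higher and 14 lower, against 1987 and 1711 of all 17564 genes tested (21.1% in either direction). Of 272 values of 34 named genes under alternatives, 265 kept their call, 6 lost it, 1 gained it and none reversed. The calls lost were those of FOXD2 (2), EPHA6 (3) and BMP3 (1), and the call gained was that of EMX1.

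The lists hold no read numbers, so what depth limits in single scores is unknown. A pair absent from a list may score just under 12. Numbers of interactions were not tested between the cell types, and NEC replicate 2 listed the fewest pairs. RNA lane and cell type cannot be told apart, and p-values measure the spread between the 2 libraries of each cell type.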
